A study of Danio rerio with 4 samples.

Results

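The members are 8 interferon-response genes of the zebrafish, isg15, rsad2, mxa, stat1a, stat1b, irf1b, irf7 and irf9. They were chosen by name, as the rows of the gene tables whose symbol is one of these, and all 8 were found, each with 1 row, among 25432 genes. Their identifiers in the files are ENSDARG00000086374 for isg15, ENSDARG00000004952 for rsad2, ENSDARG00000021688 for mxa, ENSDARG00000006266 for stat1a, ENSDARG00000076182 for stat1b, ENSDARG00000043249 for irf1b, ENSDARG00000045661 for irf7 and ENSDARG00000016457 for irf9. Their UMIs (unique molecular identifiers, each standing for 1 captured transcript) were summed per cell class and library in single-cell RNA sequencing of adult wild-type zebrafish skin. The libraries were 1 of untreated, unwounded skin and 1 each of laser wounds at 2, 4 and 6 days post wounding (dpw), every one made from the pooled tissue of 3 fish. The tissue was taken in differing ways, by scraping for unwounded skin and with a biopsy punch of 4 mm for the wounds, and the way of sampling cannot be told apart from wounding.

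Interferons are secreted cytokines that cells release on sensing viral nucleic acid or on T cell activation. Type I interferons, in fish the ifnphi genes, act through a receptor and JAK kinases on a complex of STAT proteins with IRF9, which switches on antiviral genes. Type II interferon, ifng1 and ifng1r in fish, acts mainly through STAT dimers, with IRF1 among the first targets. These genes are known best from infection, and fish skin is a tissue exposed to water-borne virus.

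The 4 libraries held 5802, 7754, 7315 and 8314 cells after filtering (unwounded, 2, 4 and 6 dpw), with median UMIs per cell from 3979 to 4190. Between 10 and 17 kept barcodes were shared by each pair of libraries, and no doublets were removed. Cells were clustered with the members left out of the variable genes, clusters were named by marker genes, and 12 classes with at least 20 cells in every library were used. In keratinocyte-like cells all 15 keratinocyte markers were detected, with a summed level between 53842 and 65022 CPM (UMIs scaled to the same total in every class and library, the usual counts-per-million unit) in the 4 libraries. The cells of unnamed clusters numbered 3965 of 29185, and mural-like cells were left out with 13 cells in unwounded skin. As every condition is 1 library, no test between conditions is possible, and intervals cover counting error only. Levels are in CPM with exact 95% Poisson intervals, and in sums over cells fewer expressing cells and less RNA per cell cannot be told apart.

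Of the 96 pairs of a member and a class, a pair counted as measured with at least 20 UMIs over unwounded skin and the wound. At 2 dpw 10 of 79 measured pairs were at least 2-fold higher than in unwounded skin, 12.7% against 11.81% of all gene and class pairs, and 8 were at least 2-fold lower, 10.1% against 8.64%. At 4 dpw 3 of 76 pairs were higher, 3.95% against 9.71%, and 13 were lower, 17.1% against 9.63%. At 6 dpw 5 of 73 pairs were higher, 6.85% against 6.98%, and 21 were lower, 28.8% against 7.94%. Red blood cell-like cells served as the background, since droplets also take up free RNA. They were shallow, at median UMIs of 928, 784, 751 and 805 in the unwounded, 2, 4 and 6 dpw libraries. Keratinocyte-like cells had 12102, 11200, 9961.5 and 10605. The same amount of free RNA gives a higher CPM in a shallower cell. A level at or below that of red blood cell-like cells thus does not show that it came from free RNA. Whether the member UMIs in red blood cell-like cells came from free RNA or from these cells themselves was not tested. Of the lower pairs, the higher of the 2 levels lay above that of red blood cell-like cells in the same library in 7 of 8 at 2 dpw, 8 of 13 at 4 dpw and 13 of 21 at 6 dpw, while it lay at or below it in 1, 3 and 6 pairs, and 2 pairs at 4 dpw and 2 at 6 dpw were of red blood cell-like cells themselves. This split compared point values, and some lay within counting error of each other. At 6 dpw mxa in T cell-like cells counted as above (13.3 against 13.1 CPM, the latter from 3 UMIs). There rsad2 in keratinocyte-like cells counted as below (25.4 against 26.1 CPM, the latter from 6 UMIs). The median ratio over the measured member pairs went with the counts of lower pairs, at 0.958 for 2 dpw, 0.805 for 4 dpw and 0.627 for 6 dpw, beside 1.03, 0.975 and 0.942 over all measured genes. The interval of the ratio left out 1 in 9 of the 10 higher and 7 of the 8 lower pairs at 2 dpw, in 3 of 3 and 10 of 13 at 4 dpw, and in 4 of 5 and 17 of 21 at 6 dpw. These pairs were picked for being past 2-fold, so this count is not separate support. The intervals also take UMIs of 1 cell as independent. For isg15 in dendritic-like cells at 2 dpw the interval was 3.54 to 7.66. Without the cell with the most isg15 UMIs in each library that ratio was 0.572. All 3 comparisons share the unwounded library, so a high value there lowers all of them. Some lower pairs counted as measured mainly through their unwounded UMIs, such as irf1b in dendritic-like cells at 6 dpw (27 against 3). This favours lower calls, and the same rule held for all genes.

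**Figure D1:**
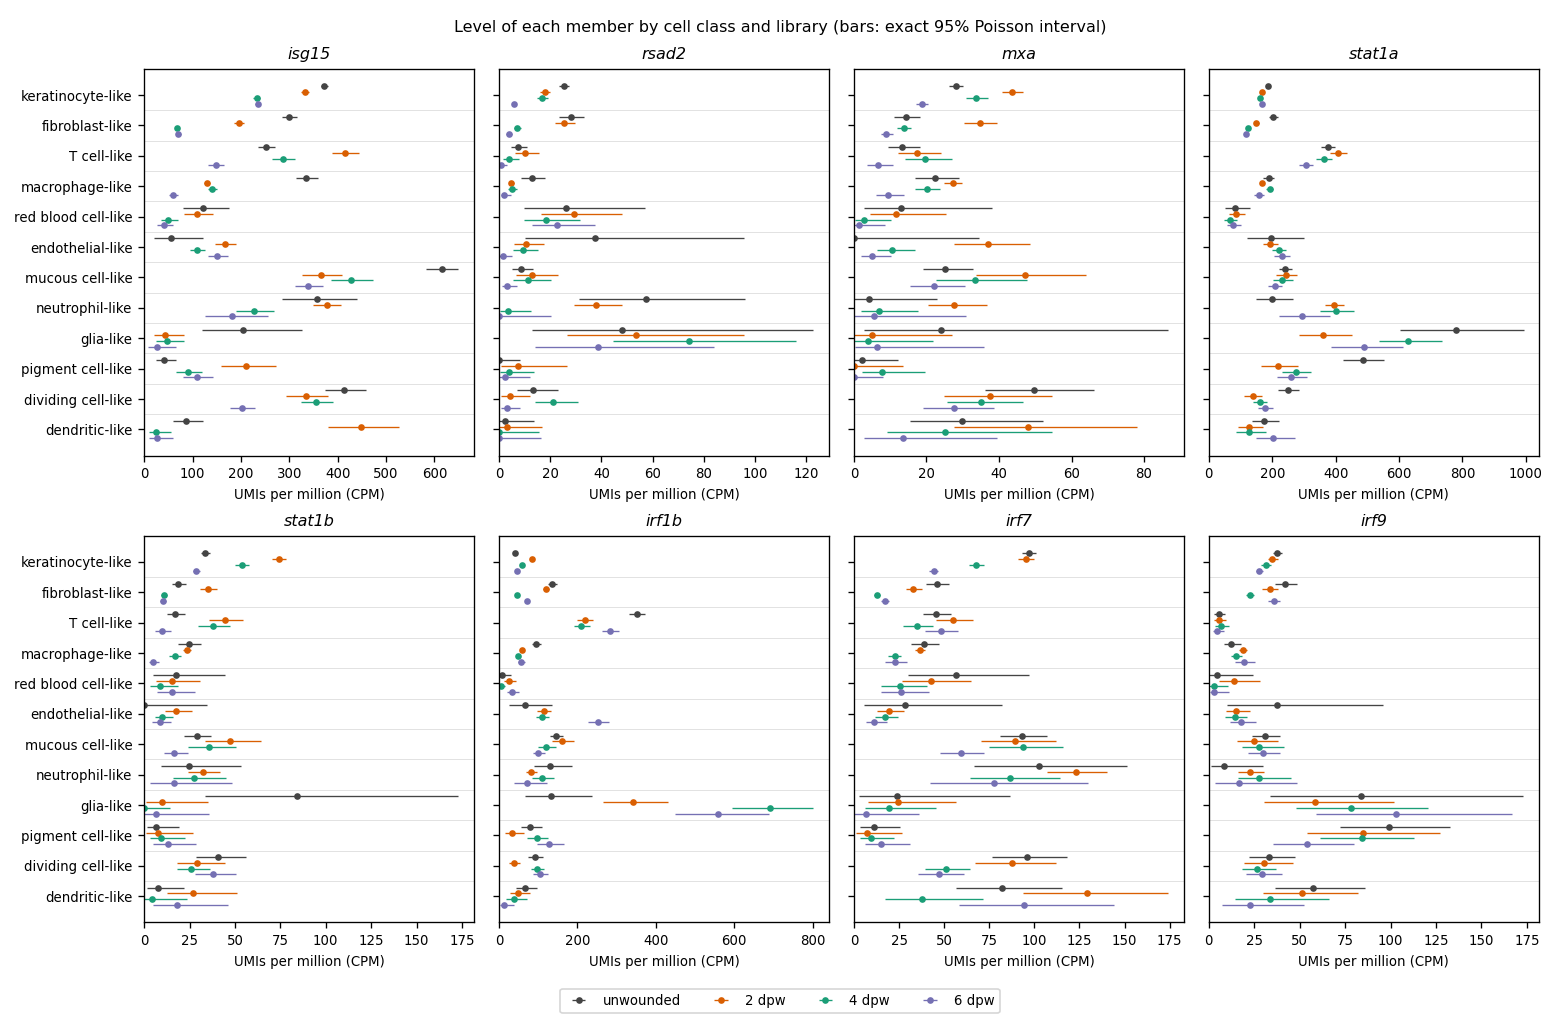
Level of each member (CPM, linear axis) in the 12 cell classes, with 1 point for each library and its exact 95% Poisson interval as a bar. isg15 in macrophage-like cells was highest in unwounded skin (335 CPM), and irf1b stood highest in glia-like cells at 4 dpw (691 CPM). In fibroblast-like cells of unwounded skin isg15 was at 299.7 CPM, where 1 cell held 605 of 1366 UMIs. Without the cell with the most isg15 UMIs in each library it was at 168 CPM, beside 185 at 2 dpw.

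The antiviral effectors were described first. isg15 encodes a ubiquitin-like protein that is attached to other proteins in infected cells. In keratinocyte-like cells isg15 was at 373 CPM in unwounded skin, 333 at 2 dpw, 232 at 4 dpw and 235 at 6 dpw. In macrophage-like cells it was at 335 CPM in unwounded skin, 130.02 at 2 dpw, 141 at 4 dpw and 59.5 at 6 dpw. Both classes were thus highest without a wound. The macrophage-like ratio was 0.388 at 2 dpw (95% interval 0.358 to 0.420) and 0.178 at 6 dpw (0.148 to 0.211). The summed keratinocyte markers in macrophage-like cells were at 2747 CPM in unwounded skin, 1201 at 2 dpw, 877 at 4 dpw and 2463 at 6 dpw, and their part in the result was not tested.

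In fibroblast-like cells isg15 was at 299.7 CPM in unwounded skin, 197 at 2 dpw, 68.4 at 4 dpw and 71.0 at 6 dpw, ratios of 0.228 (0.210 to 0.247) at 4 dpw and 0.237 (0.218 to 0.257) at 6 dpw. A single cell held 605 of the 1366 unwounded UMIs, and without the cell with the most isg15 UMIs in each library the levels were 168, 185, 65.9 and 65.3 CPM. The ratios were then 1.102 at 2 dpw in place of 0.656, 0.392 at 4 dpw and 0.389 at 6 dpw. The fibroblast marker sum in the same cells was 17343, 17527, 58912 and 56631 CPM in that order, so matrix genes took a larger share of their UMIs at 4 and 6 dpw. With edgeR TMM factors the isg15 ratios at 4 and 6 dpw stayed past 2-fold. The part of the matrix genes in these ratios was not tested. T cell-like cells went another way, with isg15 at 252 CPM in unwounded skin, 415 at 2 dpw, 287 at 4 dpw and 148 at 6 dpw. Mucous cell-like cells had the highest mean over the libraries, at 615 CPM in unwounded skin and 366, 428 and 339 CPM in the wounds, and their range overlapped those of dividing cell-like, keratinocyte-like, neutrophil-like, T cell-like and dendritic-like cells. Neutrophil-like cells had isg15 at 356 CPM in unwounded skin, 377 at 2 dpw, 227 at 4 dpw and 183 at 6 dpw. Glia-like cells were highest without a wound, at 204 CPM against 43.8, 46.9 and 25.7 CPM, from 17, 9, 12 and 4 UMIs. With each cell named by its own markers their ratio was 2.41 at 2 dpw in place of 0.215, 0.545 at 4 dpw in place of 0.230 and 0.774 at 6 dpw in place of 0.126, so the direction at 2 dpw turned. Endothelial-like cells were lowest without one, at 56.1 CPM against 167, 109 and 151 CPM, the first from 6 UMIs. Pigment cell-like cells had 41.9 CPM in unwounded skin and 210.5, 89.9 and 108 CPM in the wounds, from 19, 57, 47 and 50 UMIs. With equal weight for every cell their ratio was 1.32 at 4 dpw in place of 2.15 and 1.43 at 6 dpw in place of 2.59.

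The isg15 level of red blood cell-like cells was 122 CPM in unwounded skin, 109 at 2 dpw, 49.9 at 4 dpw and 41.1 at 6 dpw, also highest without a wound, and its part in the values of the other classes was not tested. The dendritic-like value of 448 CPM at 2 dpw, against 87.1 in unwounded skin, rested on 1 cell, and without the cell with the most isg15 UMIs in each library the ratio was 0.572 in place of 5.14.

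rsad2 encodes viperin, a radical SAM enzyme that makes a chain-terminating nucleotide against viral polymerases. In keratinocyte-like cells rsad2 was at 25.4 CPM in unwounded skin, 17.8 at 2 dpw, 16.98 at 4 dpw and 5.82 at 6 dpw, and in fibroblast-like cells at 28.1, 25.5, 7.17 and 3.74 CPM. The 6 dpw ratio was 0.229 (0.192 to 0.272) in keratinocyte-like and 0.133 (0.0938 to 0.187) in fibroblast-like cells. At 6 dpw all 6 measured classes lay below unwounded skin, 5 of them past 2-fold, beside 7.94% of all gene and class pairs. T cell-like cells had 22 UMIs in unwounded skin and 2 at 6 dpw, macrophage-like cells 32 and 5, and mucous cell-like cells 18 and 5. These classes counted as measured mainly through unwounded skin, which favours lower calls. The mucous cell-like interval held 1 (0.106 to 1.02). Red blood cell-like cells had 26.1, 29.2, 18.5 and 22.8 CPM of rsad2 from 6 to 15 UMIs, at or above most other classes. The keratinocyte-like level lay below theirs in all 4 libraries and the fibroblast-like level in all 3 wounds. The levels in T cell-like, macrophage-like and mucous cell-like cells were all under 13 CPM. None of these 5 classes thus lay above the red blood cell-like level in any wound. At 6 dpw T cell-like cells had 0.881 CPM and macrophage-like cells 1.95 CPM, beside 22.8 CPM in red blood cell-like cells. The source of rsad2 in red blood cell-like cells was not tested. Glia-like cells had the highest mean, from 38.6 to 74.2 CPM over 4 to 19 UMIs a library, and their range overlapped that of neutrophil-like cells.

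mxa encodes a dynamin-like GTPase that restricts viruses inside the cell. It is 1 of several close copies, and reads that fit more than 1 copy may be missing from its count. At 2 dpw mxa was higher than in unwounded skin in 8 of 9 measured classes. Of these, neutrophil-like and endothelial-like cells held 1 and 0 unwounded UMIs, so they counted as measured through their 2 dpw UMIs. The interval held 1 in T cell-like, dendritic-like and macrophage-like cells. The median ratio over all gene and class pairs was 1.03 at 2 dpw. In fibroblast-like cells it was at 14.3 CPM in unwounded skin, 34.7 at 2 dpw, 13.8 at 4 dpw and 8.94 at 6 dpw, a ratio of 2.43 (1.84 to 3.25) at 2 dpw. In keratinocyte-like cells it was at 28.1, 43.6, 33.8 and 18.8 CPM. Mucous cell-like cells had 25.2, 47.1, 33.4 and 22.2 CPM, a ratio of 1.87 (1.21 to 2.87) at 2 dpw. Endothelial-like cells had 0 mxa UMIs in unwounded skin, from 44 cells, and 52 UMIs at 2 dpw, at least 1.32-fold higher with a floor of 3 UMIs in the unwounded library. Neutrophil-like cells had 1 UMI in unwounded skin and 48 at 2 dpw, a ratio of 6.73 (1.15 to 271). Of all measured genes in neutrophil-like cells 28.8% were at least 2-fold higher at 2 dpw, with a median ratio of 1.37. By 6 dpw all 6 measured classes lay below unwounded skin, among them macrophage-like cells with a ratio of 0.420 (0.249 to 0.689). The median over all gene and class pairs was then 0.942.

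The signal transducers differed from each other. stat1a and stat1b encode STAT proteins, which carry the signal of a cytokine receptor into the nucleus. stat1a was expressed broadly and was at least 2-fold higher in no measured class at any stage. In keratinocyte-like cells stat1a was at 187 CPM in unwounded skin, 167 at 2 dpw, 161 at 4 dpw and 169 at 6 dpw, and in T cell-like cells at 375, 408, 362 and 305 CPM. Glia-like cells had the highest mean level, at 779, 360.1, 629 and 488 CPM, with 65 to 161 UMIs a library, and their range overlapped those of T cell-like, neutrophil-like and pigment cell-like cells. In macrophage-like cells stat1a was at 189, 169, 192 and 159 CPM, and in fibroblast-like cells it was at 204, 150.1, 123 and 117 CPM, so that the former stayed within a narrow range and the latter was highest without a wound. Neutrophil-like cells came nearest to 2-fold higher, at 201 CPM in unwounded skin, 395 at 2 dpw, 401 at 4 dpw and 293 at 6 dpw. In these cells 28.8% of all measured genes were at least 2-fold higher at 2 dpw and 25.9% at 4 dpw. The median ratios over all their measured genes were 1.37 and 1.35. The 2 pairs past 2-fold were both lower at 2 dpw, glia-like cells at 0.462 (0.327 to 0.655) and pigment cell-like cells at 0.449 (0.331 to 0.601). The glia-like ratio was not past 2-fold with edgeR TMM factors or with equal weight for every cell, and reached at most 0.638.

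stat1b was lower in level and was highest on average in keratinocyte-like cells. There it was at 33.7 CPM in unwounded skin, 74.2 at 2 dpw, 53.7 at 4 dpw and 28.8 at 6 dpw, so that the 2 earlier wounds stood above unwounded skin and the last below it. The ratio was 2.20 (2.02 to 2.40) at 2 dpw. T cell-like cells had 16.9, 44.5, 37.9 and 9.69 CPM, with ratios of 2.63 (1.85 to 3.78) at 2 dpw and 2.24 (1.55 to 3.26) at 4 dpw. Fibroblast-like cells had 18.9, 35.3, 10.8 and 10.4 CPM, above the unwounded level at 2 dpw with a ratio of 1.87 (1.46 to 2.42) and below it at 4 and 6 dpw with 0.570 (0.437 to 0.748) and 0.550 (0.417 to 0.730). In macrophage-like cells stat1b was at 24.6, 23.6, 16.9 and 4.67 CPM, a ratio of 0.190 (0.0931 to 0.356) at 6 dpw.

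irf9 encodes the DNA-binding partner of the STAT proteins in the type I pathway. Its highest means were in glia-like cells, from 58.4 to 103 CPM, and pigment cell-like cells, from 54.2 to 99.2 CPM, and these ranges overlapped. In keratinocyte-like cells irf9 was at 37.8 CPM in unwounded skin, 35.0 at 2 dpw, 31.5 at 4 dpw and 27.6 at 6 dpw. It was at 4.41 to 6.56 CPM in T cell-like cells. Macrophage-like cells had 12.3, 18.6, 15.1 and 19.5 CPM, the lowest of them without a wound, with a ratio of 1.51 (1.04 to 2.26) at 2 dpw. Fibroblast-like cells had 41.9, 33.7, 22.5 and 35.6 CPM. All 5 irf9 pairs past 2-fold rested on 2 to 5 UMIs in 1 of the libraries, and their intervals held 1.

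**Figure D2:**
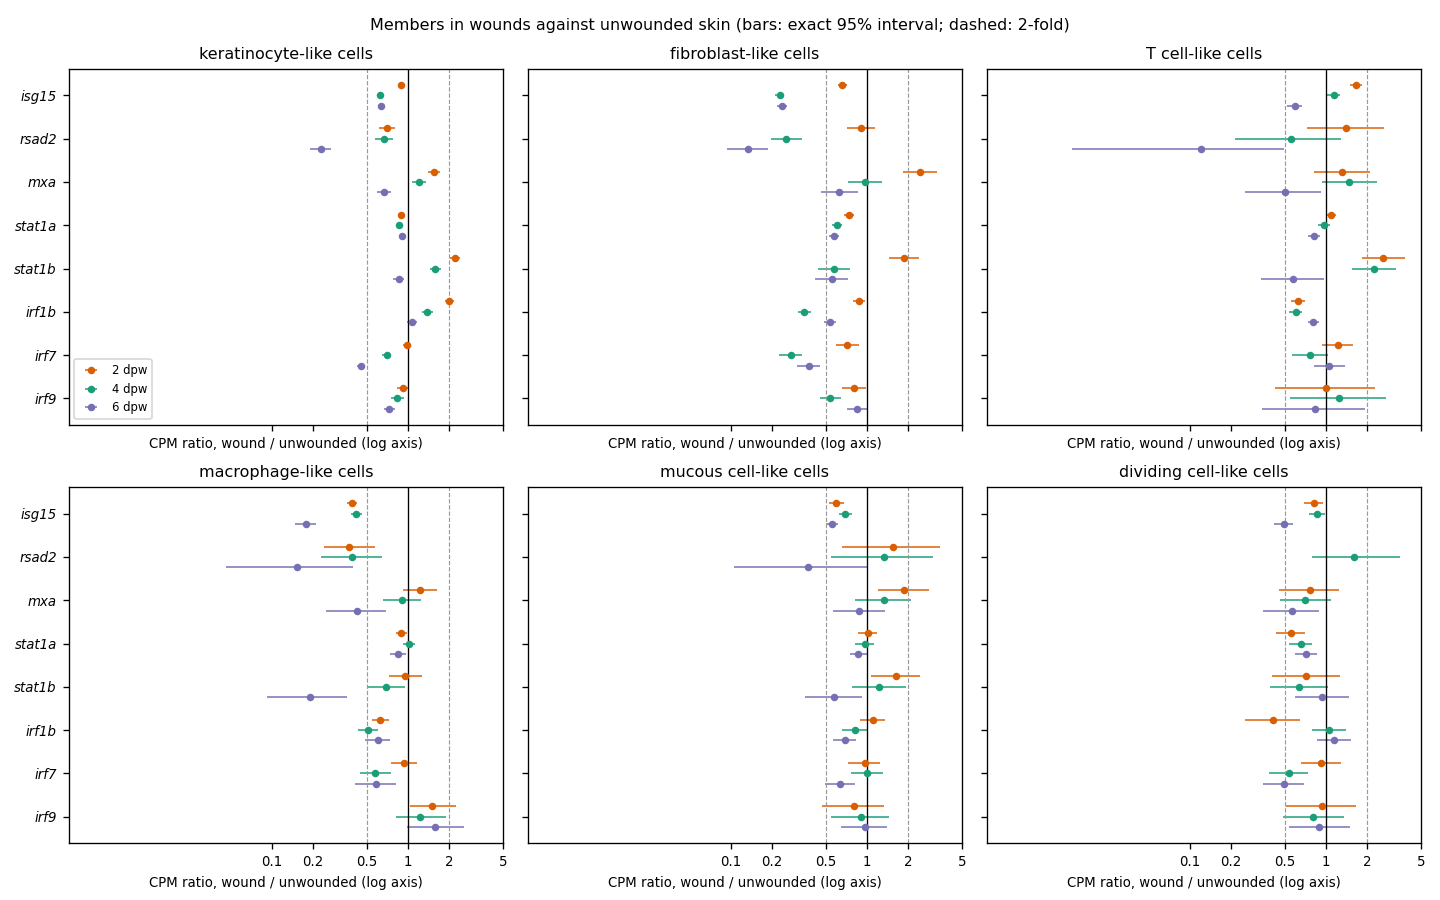
Ratio of CPM in each wound to that in unwounded skin (log axis) for the 8 members in 6 cell classes, with exact 95% intervals and dashed lines at 2-fold. stat1b lay above 1 at 2 dpw in keratinocyte-like (2.20) and T cell-like (2.63) cells, and rsad2 lay below 0.5 at 6 dpw in keratinocyte-like (0.229) and fibroblast-like (0.133) cells, where its level was below that of red blood cell-like cells.

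Among the members, the 2 interferon regulatory factors with most UMIs also differed. irf1b is a zebrafish co-orthologue of IRF1, an early target of type II interferon. It was at 351 CPM in T cell-like cells of unwounded skin, then 218 at 2 dpw, 210.0 at 4 dpw and 283 at 6 dpw. Glia-like cells had 132 CPM in unwounded skin and 341, 691 and 559 CPM in the wounds, from 11, 70, 177 and 87 UMIs. All 3 wound values lay above the unwounded one, and the ratio was 2.58 (1.36 to 5.41) at 2 dpw, 5.24 (2.86 to 10.7) at 4 dpw and 4.24 (2.26 to 8.80) at 6 dpw. With clusters made without integration these ratios were 1.04, 1.83 and 1.58, under 2-fold. The 2 dpw ratio was under 2-fold also with at least 1000 UMIs per cell. Glia-like cells were shallow, with median UMIs of 1590 in unwounded skin and 863, 965 and 896 in the wounds. Red blood cell markers in glia-like cells were at 1199 CPM in unwounded skin and 5918, 5321 and 4607 in the wounds, macrophage markers were at 2054 CPM at 2 dpw and at most 141 elsewhere, and their part in the result was not tested.

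In keratinocyte-like cells irf1b was at 41.8, 83.9, 58.1 and 44.8 CPM in the unwounded, 2, 4 and 6 dpw libraries, a ratio of 2.01 (1.86 to 2.17) at 2 dpw that passed 2-fold in 5 of 10 alternatives. Fibroblast-like cells had 136, 119, 47.1 and 72.6 CPM, and their ratio was 0.347 (0.311 to 0.386) at 4 dpw. Macrophage-like cells had 94.8, 59.1, 48.0 and 57.2 CPM, all 3 wound values below the unwounded one. Dividing cell-like cells had 91.4, 37.5, 96.3 and 104 CPM, lower at 2 dpw alone with a ratio of 0.411 (0.256 to 0.641). Endothelial-like cells had 65.4, 114, 110 and 253 CPM, the first from 7 UMIs.

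irf7 encodes the factor that amplifies type I interferon genes after a first exposure. Its background in red blood cell-like cells was 56.6 CPM in unwounded skin, 42.8 at 2 dpw, 25.6 at 4 dpw and 25.9 at 6 dpw, also highest without a wound, from 13, 22, 18 and 17 UMIs. In keratinocyte-like cells it was at 96.9 CPM in unwounded skin, 95.5 at 2 dpw, 67.7 at 4 dpw and 44.2 at 6 dpw, a ratio of 0.456 (0.426 to 0.488) at 6 dpw. In fibroblast-like cells it was at 46.1, 32.9, 12.7 and 17.2 CPM, a ratio of 0.275 (0.226 to 0.336) at 4 dpw, and below red blood cell-like cells in every library. The 95% interval of the red blood cell-like level held the fibroblast-like level except at 4 dpw (15.2 to 40.5 CPM). In macrophage-like cells irf7 was at 38.9, 36.4, 22.5 and 22.6 CPM and in dividing cell-like cells at 95.8, 87.6, 50.8 and 47.1 CPM, so in both the 2 later wounds were the lowest. The macrophage-like levels lay below those of red blood cell-like cells in every library, which had the same 2 wounds lowest. The 95% interval of the red blood cell-like level held the macrophage-like level in every library, so this difference lay within counting error. The part of this background in the result was not tested. T cell-like cells had 45.5, 55.1, 34.8 and 48.0 CPM with no such order. Neutrophil-like cells had the highest mean, at 102, 123, 86.5 and 77.5 CPM, and their range overlapped those of dendritic-like, mucous cell-like, keratinocyte-like and dividing cell-like cells.

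The transcripts of some members were held by few cells. In every library the 1% of cells with most rsad2 UMIs held 68.1% to 75.8% of them, and the same share was 29.3% to 41.4% for isg15 and 7.84% to 9.46% for stat1a, whereas the deepest 1% of cells held 3.94% to 4.26% of all UMIs. For mxa, stat1b and irf9, nearer to rsad2 in UMIs, it was 18.8% to 27.7%, 22.2% to 29.1% and 15.1% to 18.1%. The cells were picked by the gene's own UMIs, which raises the share of a gene with few UMIs. The cells that held 50% of the isg15 UMIs numbered 127 to 186 a library, and those that held 50% of the rsad2 UMIs 27 to 33.

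In keratinocyte-like cells 2 clusters, set beside the other 9, held 86.1% of the rsad2 UMIs in unwounded skin, 42.4% at 2 dpw, 85.0% at 4 dpw and 80.4% at 6 dpw. They were picked after their values were seen, as those with the most rsad2, so their levels are a description. One is led by krt1-19d, a keratin gene, and abcb5 is among the leading genes of both. Their cells were shallower, with median UMIs of 4402, 1930.5, 2429 and 5922, beside 13052, 13786.5, 11443 and 11317 in the other clusters. The clusters held 368, 232, 185 and 342 cells in the unwounded, 2, 4 and 6 dpw libraries, and isg15 in them was at 1448, 1013, 1093 and 1375 CPM, beside 246, 291, 163 and 126 CPM in the other keratinocyte-like cells. rsad2 in them was at 208, 128, 195 and 53.9 CPM, beside 3.95, 10.9, 2.74 and 1.25 CPM. irf7 was likewise higher in them, at 436, 300.3, 310.2 and 249.9 CPM beside 57.2, 82.6, 48.3 and 24.6 CPM. stat1a showed no such split, at 177, 174, 170 and 186 CPM beside 188, 167, 160.0 and 167 CPM.

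In the other keratinocyte-like cells stat1b was at 19.9 CPM in unwounded skin, 68.2 at 2 dpw, 48.4 at 4 dpw and 24.1 at 6 dpw, a ratio of 3.42 (3.07 to 3.82) at 2 dpw. In the 2 clusters it was at 151, 169, 119.9 and 78.7 CPM, a ratio of 1.12 (0.937 to 1.33). rsad2 had a ratio of 2.76 (2.14 to 3.58) at 2 dpw in the other cells and 0.614 (0.507 to 0.739) in the 2 clusters, but the rsad2 levels in the other cells lay below the red blood cell-like level in every library. These differences between cell groups were not tested.

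**Figure D3:**
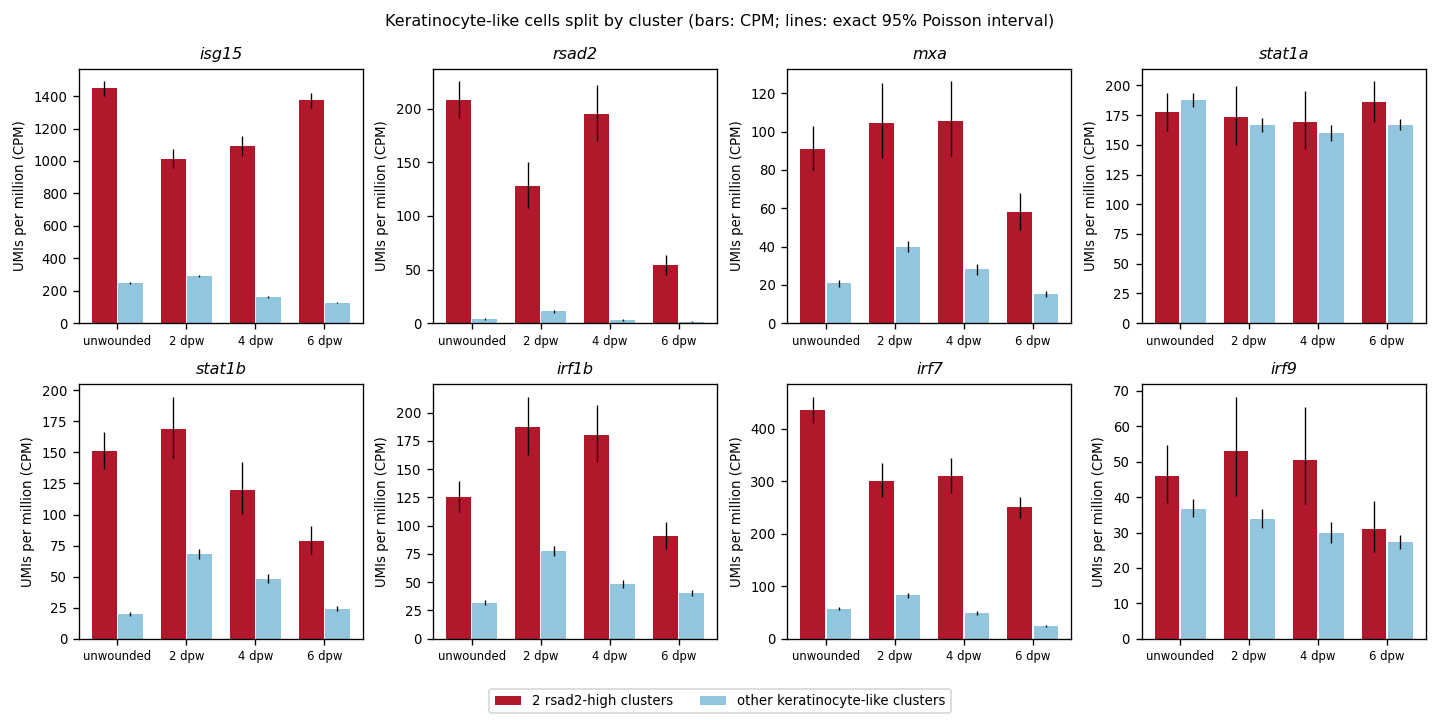
Level of each member (CPM) in the 2 keratinocyte-like clusters with the most rsad2 and in the other keratinocyte-like clusters, by library, with exact 95% Poisson intervals. In unwounded skin isg15 was at 1448 CPM in the former and 246 in the latter, while stat1a was at 177 and 188 CPM.

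A single fibroblast-like cluster, picked in the same way, held 114, 50, 50 and 89 cells in the 4 libraries, 15.2%, 8.64%, 3.81% and 5.196% of the class. Its isg15 level was 1436 CPM in unwounded skin and 680.5, 197 and 371 CPM in the wounds, and in the other fibroblast-like cells it was 124, 156, 64.4 and 58.6 CPM. The cell with 605 isg15 UMIs lay in this cluster and held most of its 876 unwounded isg15 UMIs. The unwounded level of 1436 CPM thus rested largely on 1 cell. The level of the cluster without that cell, and whether it still lay above the 2 dpw level, is not given here. Without this cluster the isg15 ratio was 0.519 (0.465 to 0.579) at 4 dpw, 0.472 (0.421 to 0.530) at 6 dpw and 1.25 (1.12 to 1.40) at 2 dpw. mxa in the other fibroblast-like cells was at 8.87 CPM in unwounded skin and 31.8 at 2 dpw, a ratio of 3.58 (2.49 to 5.29).

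Members were found in the same cells to differing degrees. With each keratinocyte-like cell thinned to 1000 UMIs, isg15 was detected in 30 of 46 cells with an rsad2 UMI in unwounded skin, 65.2% (Clopper-Pearson 95% interval 49.8 to 78.6), and in 364 of 2058 cells without one, 17.7% (16.1 to 19.4). At 6 dpw these were 17 of 21 cells, 81.0% (58.1 to 94.6), and 291 of 2476 cells, 11.75% (10.5 to 13.1). irf7 and stat1b followed in unwounded skin, with irf7 in 41.3% (27.0 to 56.8) against 9.09% (7.88 to 10.4) and stat1b in 28.3% (16.0 to 43.5) against 3.11% (2.40 to 3.95). stat1a did not, at 8.70% (2.42 to 20.8) against 16.7% (15.1 to 18.4).

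**Figure D4:**
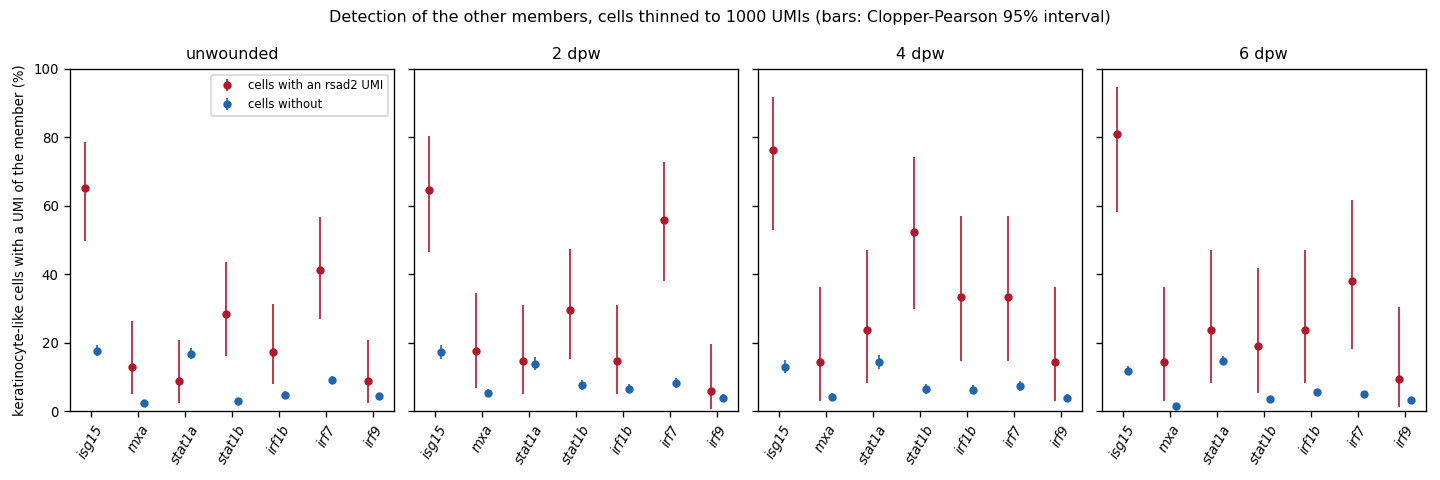
Share of keratinocyte-like cells (percent, cells thinned to 1000 UMIs) in which each other member was detected, in cells with and without an rsad2 UMI, by library, with Clopper-Pearson 95% intervals. isg15 lay at 65.2% against 17.7% in unwounded skin and at 81.0% against 11.75% at 6 dpw.

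Cells with UMIs of 3 or more members were scarce at equal depth. With each cell thinned to 500 UMIs they made up 1.03% of keratinocyte-like cells in unwounded skin (0.654 to 1.54), 2.05% at 2 dpw (1.40 to 2.90), 1.44% at 4 dpw and 0.764% at 6 dpw (0.467 to 1.18), and 0 of 168 red blood cell-like cells in unwounded skin (0 to 2.17). Without thinning the keratinocyte-like shares were 45.9%, 53.5%, 46.6% and 33.9% at median depths of 12102, 11200, 9961.5 and 10605 UMIs, and red blood cell-like cells had 751 to 928. The thinned share of cells with isg15 was 12.5%, 12.4%, 8.85% and 8.71% in keratinocyte-like cells, and 7.74%, 5.25%, 2.34% and 2.65% in red blood cell-like cells. For rsad2 it was 2.105%, 1.59%, 1.82% and 0.497% in keratinocyte-like cells and 1.79%, 1.43%, 1.82% and 1.77% in red blood cell-like cells. Over the whole class the rsad2 share thus lay near that of red blood cell-like cells, and below it at 6 dpw.

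Over all kept cells isg15 was at 358, 241, 153 and 172 CPM in the unwounded, 2, 4 and 6 dpw libraries, and rsad2 at 20.9, 14.2, 9.91 and 4.64 CPM. The mixture of classes differed between libraries, with macrophage-like cells going from 342 to 1948 between unwounded skin and 2 dpw. With the classes weighted as in unwounded skin, the isg15 ratio to unwounded skin was 0.852, 0.595 and 0.541 at 2, 4 and 6 dpw, in place of 0.672, 0.427 and 0.482. The stat1b ratio at 2 dpw was 1.99 in place of 1.498, and that of irf7 was 0.984 in place of 0.787.

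The wider pathway was read from a list of 135 other genes in 8 roles, of which 105 had a row. In keratinocyte-like cells 12 of 88 measured list genes were at least 2-fold higher and 4 lower at 2 dpw, where 13.9% of all genes were higher and 6.42% lower. At 4 dpw 5 of 86 were higher and 2 lower, beside 8.6% and 6.21% of all genes. At 6 dpw 2 of 86 were higher and 9 lower, beside 4.4% and 6.01% of all genes. The medians of the list were 1.16, 1.06 and 0.828 at 2, 4 and 6 dpw, beside 1.12, 1.01 and 0.902 over all measured genes.

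By role, most UMIs of the type I ligands lay in keratinocyte-like cells, the class with the most UMIs. ifnphi3, a type I interferon, had 969 of its 1084 UMIs in keratinocyte-like cells, at 11.9 CPM in unwounded skin, 5.75 at 2 dpw, 7.62 at 4 dpw and 15.1 at 6 dpw. Pigment cell-like cells had 0, 7.38, 21.0 and 12.9996 CPM of it from 0, 2, 11 and 6 UMIs. ifnphi1 had 309 of 540 UMIs there, at 5.49, 2.18, 2.41 and 3.08 CPM, but its level was higher in mucous cell-like cells, at 8.86, 11.77, 11.14 and 7.39 CPM from 10 to 19 UMIs a library. ifnphi2 had 141 of 163, at 1.84, 0.851, 1.20 and 2.04 CPM. In keratinocyte-like cells all 3 had their lowest value at 2 dpw, with ratios of 0.482, 0.397 and 0.462. For ifnphi1 (2.18 against 2.41 CPM) and ifnphi2 (0.851 against 1.20 CPM) the difference between 2 and 4 dpw was not tested. ifng1, the type II interferon, had 97 of 138 UMIs in T cell-like cells, at 8.96, 18.4, 3.53 and 11.0 CPM.

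At 2 dpw 8 of 22 measured interferon gamma targets were at least 2-fold higher in keratinocyte-like cells and 0 lower. Over all genes these shares were 13.9% and 6.42%. The 8 were gbp1, gbp2, gbp3, gbp4, cxcl11.1, cxcl20, acod1 and wars1, named after their values were seen. At 4 or 6 dpw 0 of the 19 measured targets were past 2-fold. Over all genes 8.6% were higher and 6.21% lower at 4 dpw, and 4.4% and 6.01% at 6 dpw. These targets are too few to tell a count of 0 clearly from those shares. Whether a target was measured depended on its UMIs over unwounded skin and the wound, as for all genes. With 22 measured at 2 dpw and 19 later, some targets counted as measured only through their 2 dpw UMIs. This favours higher calls at 2 dpw, and how many of the 8 entered in this way is not given here. The targets with the most UMIs were nearer to 1 at 2 dpw. Among them b2m, the light chain of class I antigen-presenting molecules, was at 0.830. The immunoproteasome subunits psmb8a and psmb9a were at 1.15 and 1.27. Among the other antiviral effectors 7 of 23 were at least 2-fold lower at 6 dpw and 0 higher, beside 6.01% and 4.4% of all genes. The effectors ifi45, ifi46 and ifi35 were then at 0.498, 0.620 and 0.750. Among the inhibitors, socs3b, which blocks JAK signalling, was at 6.66 (5.37 to 8.34) at 2 dpw, 4.62 at 4 dpw and 3.34 at 6 dpw, and socs3a at 1.59, 2.26 and 1.84, with ptpn6, a phosphatase, at 1.80 at 2 dpw.

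The other roles held fewer genes past 2-fold in these cells. Of 6 measured receptor genes and 8 kinases and STATs, 0 were past 2-fold at any stage. Over all genes 13.9% were higher and 6.42% lower at 2 dpw, and 4.4% and 6.01% at 6 dpw. These roles hold too few genes to tell their counts from those shares. The receptors il10rb, ifngr1 and ifngr2 were at 0.571, 0.737 and 1.30 at 2 dpw, and jak1, stat2 and stat3 at 1.15, 1.13 and 1.20. The other IRFs irf2 and irf2a were at 1.24 and 0.909, and the sensors and adaptors tbk1, sting1 and mavs at 0.900, 1.75 and 1.0997.

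**Figure D5:**
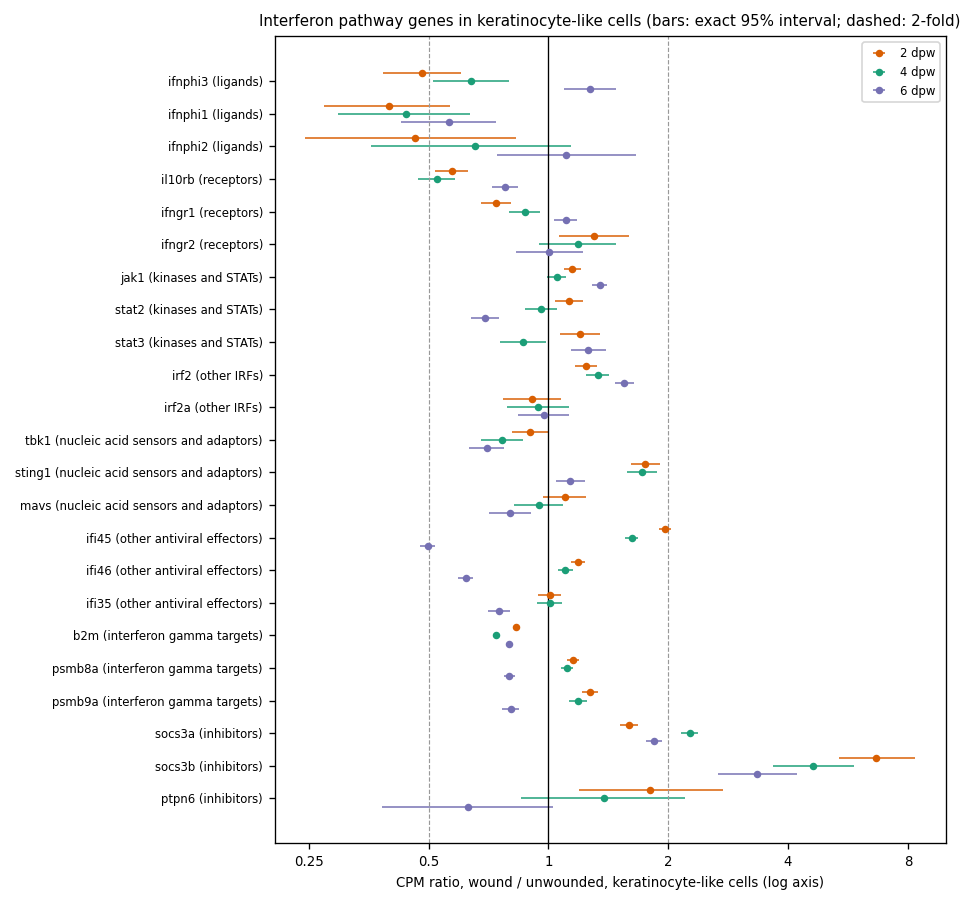
Ratio of CPM in each wound to that in unwounded skin (log axis) in keratinocyte-like cells, for the genes of each role with the most UMIs (3 for most roles), with exact 95% intervals and dashed lines at 2-fold. socs3b was highest at 2 dpw (6.66) and the 3 ifnphi genes were lowest there (0.482, 0.397 and 0.462).

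Across the 48 class and library points, the members did not share 1 pattern. The correlation of log2(CPM + 1) between members ran from -0.23 for irf7 and irf9 to 0.75 for stat1a and irf1b, and isg15 and stat1b were at 0.70 and isg15 and rsad2 at 0.16. Points of 1 class share cells of 1 type and points of 1 library share a preparation, so these are descriptions. Of 13949 other genes, those most like each member were si:ch211-266c8.1 and zgc:152658 for isg15 (r of 0.76 and 0.73), faxdc2 and tob1a for rsad2 (0.58 and 0.57), cox6b1 and mxb for mxa (0.78 and 0.72) and shrprbck1r and utrn for stat1a (0.83 and 0.83). They were cth and si:dkeyp-1h4.6 for stat1b (0.76 and 0.69), cirbpb and hexim1 for irf1b (0.82 and 0.80), galnt6 and dennd2da for irf7 (0.84 and 0.81) and dynlrb1 and mink1 for irf9 (0.89 and 0.83).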

How the data were processed

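Skin of adult wild-type zebrafish was profiled by droplet single-cell RNA sequencing (10x 3' chemistry) in 4 libraries, each of 3 pooled fish. Per the file headers the authors used Cell Ranger 6.1.2, and the submitters' processing notes name build GRCz11 and Seurat 4.3.0. The deposited values are the raw count of UMIs per gene and cell, with no normalization. Gene IDs and symbols are paired in the files.

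Following the study's limits, cells with 500 to 30000 UMIs, 200 to 4500 genes and under 25% mitochondrial UMIs were kept. The paper gives strict UMI and gene limits, and here the limits themselves were included. This kept 29185 of 36239 cells, with 43307637, 56645346, 53270696 and 56867519 UMIs in the unwounded, 2, 4 and 6 dpw libraries. No doublet caller was applied. Pairs of libraries shared 17 to 27 barcodes, of which 10 to 17 were among kept cells. Genes found in at least 5 cells (21580) were clustered in R 4.3.3 by sctransform 0.4.2 and Seurat 5.3.0 (3500 variable genes, from which the members and pathway genes were then removed, 17 dimensions, resolution 1), which gave 40 clusters. A marker counted where at least 10% of a cluster's cells had it at a level at least 2-fold that of other cells, and at least 3 markers were needed for a name. A difference from the study may come from these rebuilt classes.

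UMIs were summed per class and library. Levels have exact Poisson intervals, ratios exact conditional intervals and shares Clopper-Pearson intervals, at 95% and for counting error only. A pair was measured with 20 UMIs over both libraries and past the fold at 2. Where a library held 0 UMIs, the ratio was taken with a floor of 3 UMIs in its place, a rule settled after the data were seen. Shares used cells thinned to 500 UMIs, or 1000 for co-detection, which left out 74 to 129 shallower keratinocyte-like cells a library. All members are named, with the 3 genes of each role that had the most UMIs, of which 1 gene is not reported here, and the 2 genes most like each member among those with at least 200 UMIs. The members and lists were chosen with earlier results of these data known. Of the alternatives, 11 were planned for the counts of pairs and 3 were added after the data were seen. edgeR 4.0.16 gave TMM factors for 1 of them, and no test was run. Python 3.11.15, pandas 2.3.3, numpy 2.4.6, leidenalg 0.10.2, scanpy 1.11.5, matplotlib 3.10.9 and scipy 1.17.1 were used, and the intervals were tested on simulated data.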

Additional observations from a re-analysis of the deposited data

Results flagged for a closer look

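isg15 and irf1b lay past 2-fold in opposite directions in different cell classes, and the difference between classes was not tested. At 2 dpw the isg15 ratio to unwounded skin was 5.14 in dendritic-like, 5.03 in pigment cell-like and 2.99 in endothelial-like cells, and 0.215 in glia-like and 0.388 in macrophage-like cells. The dendritic-like value rested on 1 cell, without which it was 0.572, and the glia-like ratio was 2.41 with each cell named by its own markers. At 4 dpw isg15 was at 2.15 in pigment cell-like cells and at 0.289 in dendritic-like, 0.228 in fibroblast-like, 0.230 in glia-like, 0.419 in macrophage-like and 0.409 in red blood cell-like cells. The pigment cell-like ratio was 1.68 without integration, 1.32 with equal weight for every cell and 1.86 without the cell with the most UMIs, and the glia-like ratio was 0.545 with own markers. At 6 dpw it was at 2.69 in endothelial-like and 2.59 in pigment cell-like cells. It was then at 0.310 in dendritic-like, 0.489 in dividing cell-like, 0.237 in fibroblast-like, 0.126 in glia-like, 0.178 in macrophage-like and 0.337 in red blood cell-like cells. The pigment cell-like ratio was then 1.43 with equal weight, and the glia-like ratio 0.774 with own markers. The dendritic-like ratios at 4 and 6 dpw rested on 35 UMIs in unwounded skin and 6 in each wound. The unwounded dendritic-like level of 87.1 CPM lay below the 122 CPM of red blood cell-like cells.

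The irf1b ratio at 2 dpw was 2.58 in glia-like and 2.01 in keratinocyte-like cells, and 0.411 in dividing cell-like and 0.419 in pigment cell-like cells. At 4 dpw it was 5.24 in glia-like and 0.347 in fibroblast-like cells. At 6 dpw it was 3.86 in endothelial-like and 4.24 in glia-like cells, and 0.201 in dendritic-like cells. The dendritic-like value rested on 27 UMIs in unwounded skin and 3 at 6 dpw. Red blood cell-like cells had 3.84 at 6 dpw from 2 and 22 UMIs, with an interval that held 1 (0.944 to 33.7). Without integration the glia-like ratios were 1.04, 1.83 and 1.58 at 2, 4 and 6 dpw, under 2-fold, so no class measured that way was at least 2-fold higher at 4 dpw. The 2 dpw glia-like ratio was under 2-fold also with at least 1000 UMIs per cell.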

How the results depend on the processing

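No paired analysis was possible because each condition is 1 library. Of the pairs past 2-fold, those that stayed past it under every alternative tried for the single pairs were 5 of 10 higher and 3 of 8 lower at 2 dpw, 1 of 3 and 7 of 13 at 4 dpw, and 2 of 5 and 9 of 21 at 6 dpw. The count of lower pairs at 2 dpw was 5 without integration, 5 with equal weight for every cell and 5 with at least 50 UMIs. With at least 50 UMIs, where fewer pairs are measured, it was 7 at 4 dpw and 12 at 6 dpw. The count of higher pairs at 4 dpw was 5 with TMM factors, 8 with equal weight and 5 without the cell with the most UMIs, and at 6 dpw it was 3 with each cell named by its own markers. Where not stated otherwise, the cause was not tested. Ratios that changed direction were rsad2 in macrophage-like cells at 4 dpw (1.11 without integration, 1.06 with equal weight), isg15 in dendritic-like cells at 2 dpw (0.572 without the top cell) and, with each cell named by its own markers, isg15 in glia-like cells at 2 dpw (2.41), irf7 in red blood cell-like cells at 4 dpw (1.002) and irf1b in red blood cell-like cells at 6 dpw (0.801). With each cell named by its own markers 126 of 175 single ratios stayed close to their value, without integration 151 of 189 and under equal weight 171 of 228, and 227 of 228 did so with genes of haemoglobin, mitochondria and ribosomal proteins left out of the totals, although 229 of 384 levels moved.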
